A study of Oryza sativa with 6 samples.

Results

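The genes described are 6 of the 30020 genes measured in a comparison of rice seedlings (Oryza sativa, cultivar Nipponbare) with and without OsChz1, which carries a CHZ domain and acts as a chaperone of histones. Of these, 5 form the momilactone gene cluster on chromosome 4: CPS4 (LOC_Os04g09900), KSL4 (LOC_Os04g10060), CYP99A2 (LOC_Os04g10160), CYP99A3 (LOC_Os04g09920) and MAS (LOC_Os04g10010). The sixth is LOC_Os01g64780 on chromosome 1, listed as the regulator DPF. The members were taken by their identifiers from a list chosen by the log2 fold changes of this same comparison together with their place in the cluster or their listed role, since those values were known when it was drawn up. Their fold changes and adjusted p-values are therefore given as a description, without support for any statement.

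The oschz1 group held 3 samples and the wild-type group 3. The mutant studied by RNA-seq was the allele oschz1-1, made by genome editing, with a deletion of 1 nucleotide and a premature stop codon, so that the genotype rests on a single allele. Both groups were 30-day-old seedlings grown for 10 days on half-strength and then 20 days on full-strength medium, under long days with a 14 h light period at 30 °C and a 10 h dark period at 28 °C, and no treatment or elicitor is given in the labels. RNA came from pools of seedlings, and the study's methods do not say which organs were taken. Fewer cells that express a gene and less RNA per cell therefore cannot be told apart.

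Momilactones are labdane-related diterpenoids of rice. They are made as phytoalexins after attack by the blast fungus, after UV light or after treatment with elicitors such as chitin or jasmonate, and they are also released from roots, where they slow the growth of neighbouring plants. Synthesis starts in the plastid from geranylgeranyl diphosphate. CPS4 closes it to syn-copalyl diphosphate, and KSL4 turns this into syn-pimaradiene. The cytochromes P450 CYP99A2 and CYP99A3 oxidise the hydrocarbon, and MAS, a short-chain dehydrogenase, acts near the end of the route to momilactone A. The genes of these enzymes stand close together in the genome although the enzymes are unrelated in sequence, which makes the locus a metabolic gene cluster. DPF is known as a basic helix-loop-helix activator of diterpenoid phytoalexin genes. The symbols of the 5 cluster genes are in the RefSeq gene table of rice, whereas the pairing of DPF with LOC_Os01g64780 could not be checked in the sources used here. In that table, as in the order of the identifiers, the genes follow each other as CPS4, CYP99A3, MAS, KSL4 and CYP99A2.

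The deposited table holds no values of single libraries, but the reads of the 6 genes in each library could be worked out from it. A mean normalized read count is a sum of whole reads, each with a fixed worth per library, and the deposited fold change and its standard error (SE) fix how the sum divides. For each of the 6 genes exactly 1 set of reads gave the deposited fold change. Size factors, which scale with depth, were 1.49, 1.19 and 0.596 in oschz1 and 1.59, 0.820 and 0.738 in wild-type. The libraries are named a, b and c in this order within each genotype, because the genotype of a library can be told but not its replicate number. Normalized counts below are reads divided by the size factor. They are not divided by gene length and are compared between genotypes only, not between genes.

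A gene was called misregulated where the fold change was at least 1.5 and the adjusted p of the authors' DESeq2 Wald test was at most 0.05, the thresholds of the study's methods. By this rule 2 of the 6 genes were higher in oschz1, 0 were lower and 4 were not called. With an unadjusted p under 0.05 in the same test, 4 were higher and 0 lower, where 14.6% of all tested genes were higher and 12.3% lower. At that p, 17.0% of the genes with means of 10 to 80 were higher. Over all 25945 genes with an adjusted p, 6.24% were called higher and 1.34% lower, together 7.58%. Among genes with mean normalized counts of 10 to 80, the range that holds the 5 cluster genes, 12.0% were called higher. The median log2 fold change of the 6 genes was 0.82, and that of the 5 on chromosome 4 was 1.43. The median was -0.0049 over all tested genes and 0.078 over tested genes with means of 10 to 80.

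The values differed among the cluster genes. CPS4, KSL4 and CYP99A2 had normalized counts about 3 times as high in oschz1 as in wild-type, whereas CYP99A3 and MAS, which lie between them, had counts that overlapped between the genotypes. Over the 6 libraries, the mean normalized counts behind these values lay between 10.2 for KSL4 and 75.9 for CPS4. The precision of each gene depends on this count and also on the spread between libraries.

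**Figure D1:**
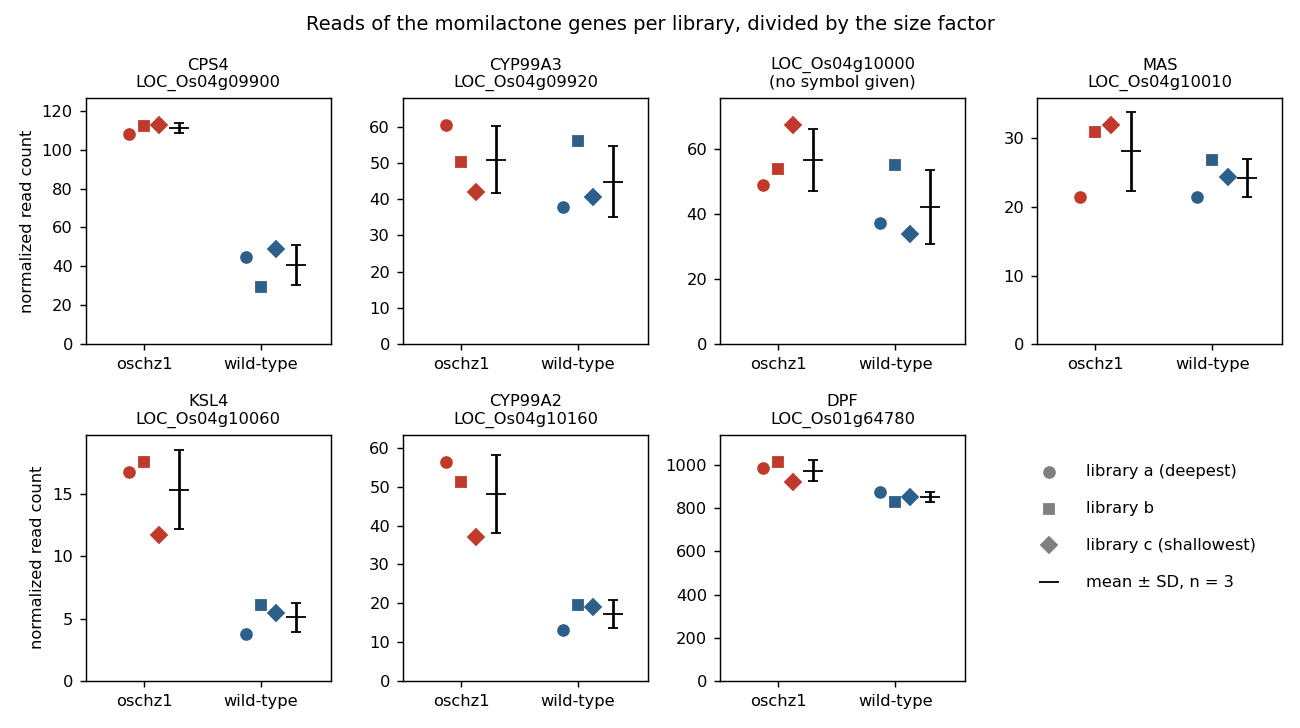
Normalized read count (reads divided by the size factor) of CPS4, CYP99A3, the unnamed LOC_Os04g10000, MAS, KSL4, CYP99A2 and LOC_Os01g64780, marked DPF as listed. Points are the 3 oschz1 libraries (red, left) and the 3 wild-type libraries (blue, right), with mean and SD beside them and each axis starting at 0. The oschz1 and wild-type points lie apart for CPS4, KSL4, CYP99A2 and, by a small margin, LOC_Os01g64780, and overlap for the other genes.

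The synthase genes come first in the route. CPS4, which commits geranylgeranyl diphosphate to the syn branch, had 161, 134 and 67 reads in oschz1 libraries a, b and c, against 71, 24 and 36 reads in wild-type libraries a, b and c. Divided by the size factors, this was 108, 112 and 112 normalized counts in oschz1, against 44.7, 29.3 and 48.8 in wild-type. The 3 mutant libraries lay within a few counts of each other and all above the highest wild-type library, while wild-type library b was clearly below its 2 fellows. The means were 110.9 ± 2.50 in oschz1 and 40.9 ± 10.3 in wild-type (SD, n = 3 each). The deposited log2 fold change was 1.43 ± 0.24 (SE), a 2.69-fold difference with a 95% interval of 1.93 to 3.75, and its DESeq2 adjusted p was 1.18e-07. CPS4 was the member with the smallest SE among those of the cluster, and it had the most reads.

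KSL4, whose enzyme makes the pimaradiene skeleton from the product of CPS4, was the member with the fewest reads. It had 25, 21 and 7 reads in oschz1, against 6, 5 and 4 reads in wild-type. These are 16.8, 17.6 and 11.8 normalized counts in oschz1, against 3.78, 6.10 and 5.42 in wild-type. The groups did not overlap, and the lowest oschz1 library was also the shallowest of the 6. The means were 15.4 ± 3.16 in oschz1 and 5.10 ± 1.20 in wild-type (SD, n = 3 each). The log2 fold change of 1.66 ± 0.65 was the highest of the 6 members, a 3.17-fold difference with a 95% interval of 1.31 to 7.66. Its DESeq2 adjusted p of 0.0556 was just outside the threshold, so KSL4 was not called. In all, KSL4 had 53 reads in oschz1 against 15 in wild-type, or 3.39 times as many after adjustment for depth. The exact binomial 95% interval of this ratio, 1.88 to 6.47, covers counting error only and not the spread between seedling pools. DPF, described below, also had a DESeq2 adjusted p just outside the adjusted p threshold, at 0.0594. Unlike KSL4, it missed the fold threshold too, with a 1.15-fold difference, so it was not close to a call. CYP99A2 had the nearest DESeq2 adjusted p inside, at 0.000394.

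Of the P450 genes, CYP99A2 had the pattern of the synthases. It had 84, 61 and 22 reads in oschz1, against 21, 16 and 14 reads in wild-type. The normalized counts were 56.4, 51.1 and 36.9 in oschz1, against 13.2, 19.5 and 19.0 in wild-type. The lowest oschz1 library, again the shallowest, had nearly 2 times the count of the highest wild-type library. The means were 48.1 ± 10.0 in oschz1 and 17.2 ± 3.49 in wild-type (SD, n = 3 each). The log2 fold change was 1.55 ± 0.37 (SE), a 2.92-fold difference with a 95% interval of 1.76 to 4.84, and CYP99A2 was the second of the called members.

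CYP99A3, the close relative of CYP99A2 and its partner in oxidising syn-pimaradiene, had overlapping groups. It had 90, 60 and 25 reads in oschz1, against 60, 46 and 30 reads in wild-type. The normalized counts were 60.4, 50.2 and 42.0 in oschz1, against 37.8, 56.1 and 40.7 in wild-type. Wild-type library b, the lowest of all for CPS4, was second only to oschz1 library a for CYP99A3. The means were 50.9 ± 9.22 in oschz1 and 44.8 ± 9.87 in wild-type (SD, n = 3 each). The log2 fold change was 0.22 ± 0.30 (SE), and its 95% interval ran from 0.779-fold to 1.74-fold. Only uniquely aligned reads were kept by the authors, so a read that fits both P450 genes equally well was counted for neither.

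MAS, the dehydrogenase gene of a late step, differed as little. It had 32, 37 and 19 reads in oschz1, against 34, 22 and 18 reads in wild-type. The normalized counts were 21.5, 31.0 and 31.9 in oschz1, against 21.4, 26.8 and 24.4 in wild-type. The groups overlapped, with oschz1 library a at the level of the lowest wild-type library. The means were 28.1 ± 5.78 in oschz1 and 24.2 ± 2.73 in wild-type (SD, n = 3 each). The log2 fold change was 0.21 ± 0.39 (SE), and its 95% interval ran from 0.681-fold to 1.95-fold.

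LOC_Os01g64780, listed as the regulator DPF, was far better covered than the cluster genes. It had 1469, 1211 and 549 reads in oschz1, against 1388, 679 and 630 reads in wild-type. The normalized counts were 986, 1014 and 922 in oschz1, against 874, 828 and 854 in wild-type. The groups did not overlap, but they lay close together. The means were 973.8 ± 47.4 in oschz1 and 852.0 ± 22.6 in wild-type (SD, n = 3 each). The log2 fold change was 0.20 ± 0.08 (SE), a 1.15-fold difference with a 95% interval of 1.03 to 1.27, which ends below the 1.5-fold threshold. A gene at this level could thus be placed within narrow bounds, whereas for MAS nearly the same fold change of 1.15 came with a much wider interval.

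Non-overlap of 3 against 3 libraries was common in these data. Among the 5134 genes with means of 10 to 80 whose reads could be worked out, 22.1% had all oschz1 libraries above all wild-type libraries, and 9.88% had them all below. Of the 5 cluster genes 3 were of the first kind, and 0 of the second. The shares were measured at the level of the cluster genes, and LOC_Os01g64780, with a mean above 80, lies outside that range.

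**Figure D2:**
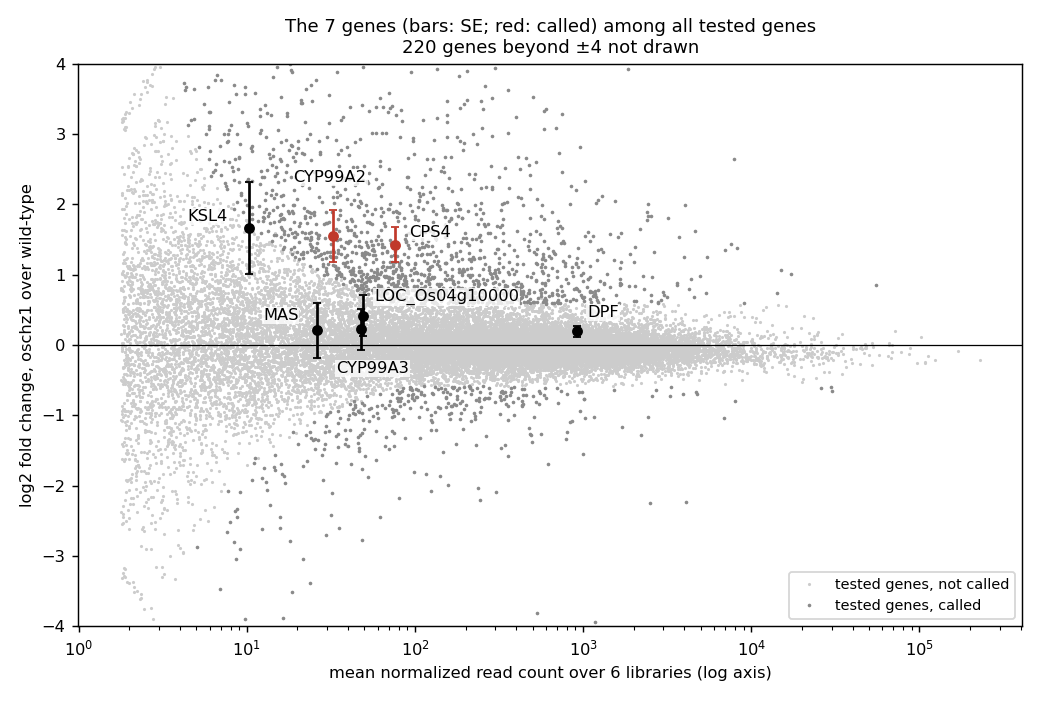
Log2 fold change (oschz1 over wild-type) against mean normalized read count on a log axis for all tested genes (light grey not called, dark grey called), with the 6 members and LOC_Os04g10000 as larger points with SE bars, red where called. KSL4 sits near the low end of the range at which genes were called, with the widest bar of the members. LOC_Os01g64780, marked DPF as listed, sits at a high count with a fold change near the line of no change.

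The genotypes were also compared by ratios of reads within a library, which do not depend on the size factors. These ratios were looked at after the values of single genes were known and are given as a description without a test. CPS4 had 1.79, 2.23 and 2.68 reads for each read of CYP99A3 in oschz1, against 1.18, 0.522 and 1.20 in wild-type. CYP99A2 had 0.933, 1.02 and 0.880 reads for each read of its relative CYP99A3 in oschz1, against 0.350, 0.348 and 0.467 in wild-type. The size of such a ratio also depends on the lengths of its genes and on the reads that aligned uniquely to each. Only its difference between the genotypes was therefore read, and all oschz1 ratios lay above all wild-type ratios here. For KSL4 over CYP99A3 the ratios were 0.278, 0.350 and 0.280 in oschz1, against 0.100, 0.109 and 0.133 in wild-type.

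With MAS as the denominator, the ratios of CPS4, CYP99A2 and KSL4 likewise did not overlap between genotypes. The ratios of CYP99A2 over MAS were 2.63, 1.65 and 1.16 in oschz1, against 0.618, 0.727 and 0.778 in wild-type. Among other genes with means of 10 to 80, 12.7% had all oschz1 ratios above all wild-type ratios when set over CYP99A3, and 13.4% when set over MAS. These shares cover all genes at that level, not only genes whose normalized counts were already apart. They therefore do not show how rare such ratios are for genes like CPS4, KSL4 and CYP99A2.

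Within the group of 3 genes with higher counts in oschz1, the ratios overlapped. KSL4 over CYP99A2 was nearly constant, at 0.298, 0.344 and 0.318 in oschz1, against 0.286, 0.313 and 0.286 in wild-type. KSL4 over CPS4 was 0.155, 0.157 and 0.104 in oschz1, against 0.0845, 0.208 and 0.111 in wild-type. Wild-type library b had the highest of these ratios, with the lowest normalized count of CPS4 and the highest of KSL4 among the wild-type libraries. CYP99A2 over CPS4 overlapped in the same way, and so did MAS over CYP99A3, with 0.356, 0.617 and 0.760 in oschz1, against 0.567, 0.478 and 0.600 in wild-type. Of the 10 pairs that the 5 genes allow, the genotypes were thus apart in the 6 that set CPS4, KSL4 or CYP99A2 over CYP99A3 or MAS, and overlapped in the other 4. The pairs reuse the same 5 genes, and the genes were grouped by these same reads. This division therefore largely restates the values of the single genes and adds no support to them.

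**Figure D3:**
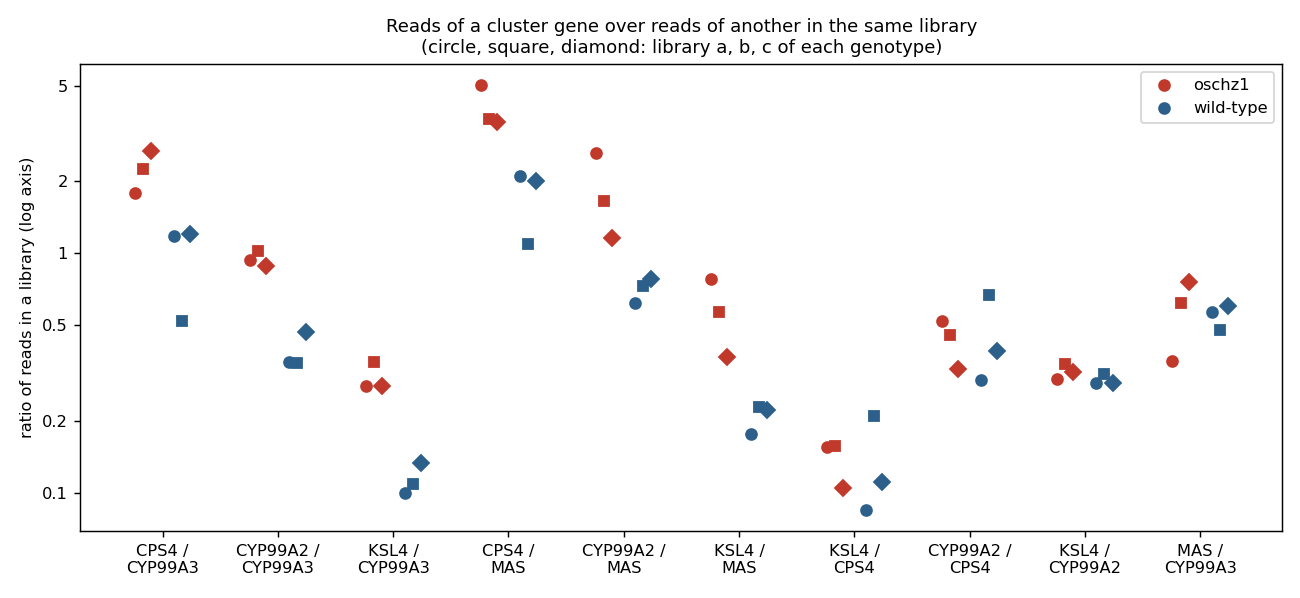
Reads of a cluster gene divided by reads of another cluster gene in the same library, on a log axis, for the 10 pairs, with oschz1 in red on the left of each pair and wild-type in blue on the right, and circle, square and diamond for libraries a, b and c. The colours are apart in the 6 pairs on the left and mix in the 4 pairs on the right, where KSL4 over CYP99A2 has the least scatter.

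The identifiers from CPS4 to CYP99A2 span 6 table genes, of which the 5 members are named and LOC_Os04g10000, between CYP99A3 and MAS, carries no symbol in the sources used here. The RefSeq table has 6 protein-coding genes from CPS4 to CYP99A2 too, and 3 genes of long noncoding RNAs. LOC_Os04g10000 had 73, 64 and 40 reads in oschz1, against 59, 45 and 25 reads in wild-type. The normalized counts were 49.0, 53.6 and 67.2 in oschz1, against 37.1, 54.9 and 33.9 in wild-type. The groups overlapped through wild-type library b, and the log2 fold change was 0.42 ± 0.30 (SE). In the order of the identifiers, the called gene CPS4 was thus followed by 3 genes with fold changes of 1.33 or less that were not called, then by KSL4 and CYP99A2.

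The rows beside the cluster were examined in the same way. Of the 20 table rows next to it, 10 on each side, 15 had an adjusted p. By the authors' DESeq2 test 0 of these were called, where 7.58% of all tested genes were called. An unadjusted p under 0.05 in that test was found for 3 of them, and for 27.0% of all tested genes (14.6% higher and 12.3% lower). Of the 3, LOC_Os04g10214 and LOC_Os04g10240 were higher in oschz1. LOC_Os04g09720 was lower, with a log2 fold change of -0.77 ± 0.33 (SE). The nearest tested gene before CPS4, LOC_Os04g09830, had a log2 fold change of -0.15 ± 0.31 (SE). The nearest after CYP99A2, LOC_Os04g10214, had 0.44 ± 0.17 with an adjusted p of 0.0472, below the fold threshold. The median log2 fold change of the 15 was -0.031. With 20 rows on each side, 2 of 30 tested genes were called, a share close to the 7.58% of all tested genes. Both lay after the cluster and were higher in oschz1: LOC_Os04g10530 with a log2 fold change of 1.47 ± 0.29 and LOC_Os04g10690 with 1.26 ± 0.27.

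**Figure D4:**
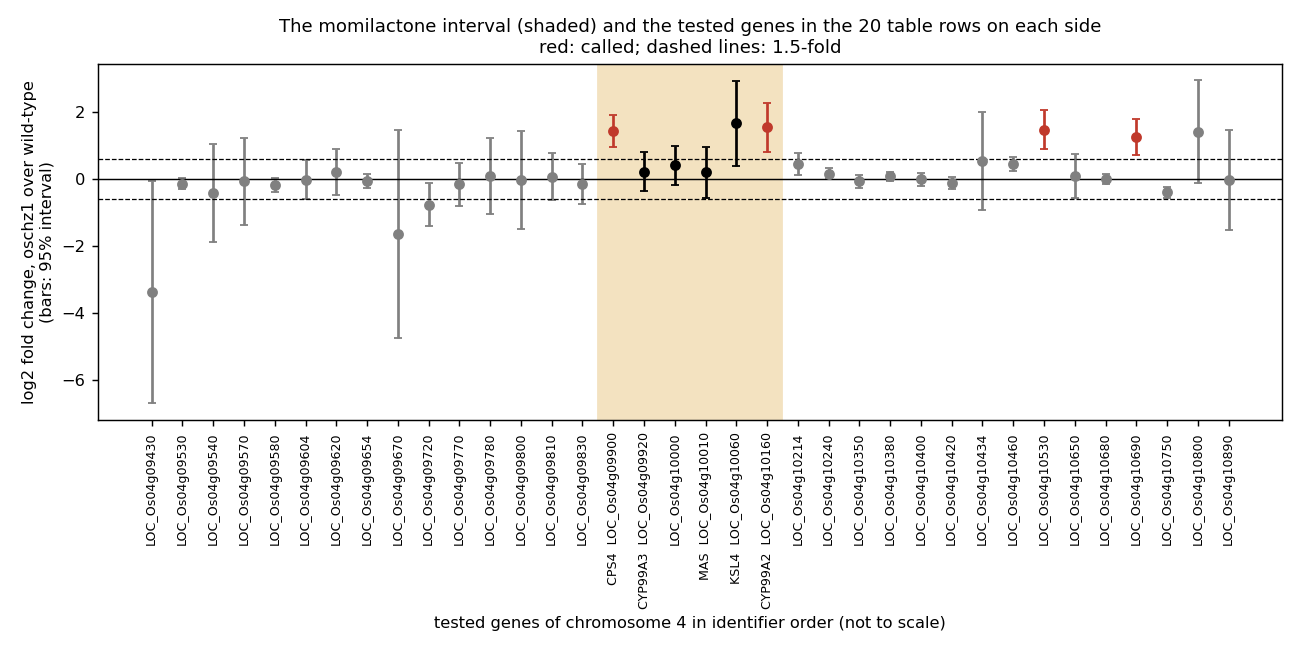
Log2 fold change (oschz1 over wild-type) with its 95% interval for the tested genes of the cluster interval (shaded) and of the 20 table rows on each side, in identifier order and not to scale, red where called. CPS4 and CYP99A2 at the ends of the interval are called, KSL4 is as high with a wider interval, and the nearest called neighbours are LOC_Os04g10530 and LOC_Os04g10690.

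Momilactone synthesis also needs genes outside the cluster, and 4 loci listed for this, all tested, were compared with it. CYP76M8, a P450 gene of chromosome 2 whose enzyme hydroxylates momilactone precursors, had 34.9, 27.6 and 16.8 normalized counts in oschz1, against 15.7, 7.32 and 6.78 in wild-type. Its groups did not overlap, though the shallowest oschz1 library was close to the highest wild-type library, and the log2 fold change was 1.36 ± 0.51 with a DESeq2 adjusted p of 0.0435. LOC_Os01g36294, whose symbol is not in the RefSeq table, had 130, 112 and 102 normalized counts in oschz1, against 51.6, 52.5 and 47.4 in wild-type, a log2 fold change of 1.20 ± 0.23. The genotypes were well apart for this gene. CYP701A8, a P450 gene of chromosome 6 whose enzyme acts on labdane-related diterpenes, had a log2 fold change of -0.07 ± 0.08, and LOC_Os04g54474 had 0.04 ± 0.09. Of these 4 loci 2 were called higher and 0 lower, where 6.24% of all tested genes were called higher and 1.34% lower. Among genes with means of 10 to 80, 12.0% were called higher, but of the 4 loci only CYP76M8 lay in that range. The loci were listed with earlier results of these data known, so the count is a description only.

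The cyclases of the other diterpenoid branches give the context of CPS4 and KSL4. Of 8 such genes 1 was called higher and 0 lower, where 6.24% of all tested genes were called higher and 1.34% lower. Among genes with means of 10 to 80 the share called higher was 12.0%, but of the 8 only KSL10 and LOC_Os11g28530 lay in that range. The called gene had a mean of 101 and lay above it. KSL7, whose enzyme makes the cassadiene skeleton of the phytocassanes, had 130, 173 and 144 normalized counts in oschz1, against 64.2, 52.5 and 44.7 in wild-type, and its log2 fold change of 1.44 ± 0.22 was nearly that of CPS4. CPS2, which supplies the ent-copalyl diphosphate used by KSL7, had -0.05 ± 0.07 and was not called. CPS1 and KS1, the cyclases of gibberellin synthesis, had -0.30 ± 0.12 and -0.11 ± 0.09 and were not called. KSL5 had -0.53 ± 0.15, an adjusted p of 0.00421 without the 1.5-fold change, and the remaining 3 genes were not called. The median log2 fold change of the 8 cyclases was -0.20.

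The plastid route that feeds geranylgeranyl diphosphate to CPS4 was represented by 9 loci, of which 0 were called higher and 1 lower in the authors' DESeq2 test. Over all tested genes these shares were 6.24% and 1.34%. The gene called lower was LOC_Os07g09190, with a log2 fold change of -0.82 ± 0.10. DXR, an enzyme gene at the entry to the route, had -0.09 ± 0.05, and MCS, a later enzyme gene, had -0.25 ± 0.07, below the fold threshold. All 9 fold changes were negative, with a median of -0.19, where the median of all tested genes was -0.0049. The share of negative fold changes among genes at these means was not measured. Besides LOC_Os07g09190, 3 genes passed the adjusted p without the 1.5-fold change, as did 2716 of all 25945 tested genes. With an unadjusted p under 0.05, 7 of the 9 were lower in oschz1 and 0 higher. Among all tested genes with means of at least 500, the range that holds these loci, 21.9% were lower and 15.1% higher at the same p.

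**Figure D5:**
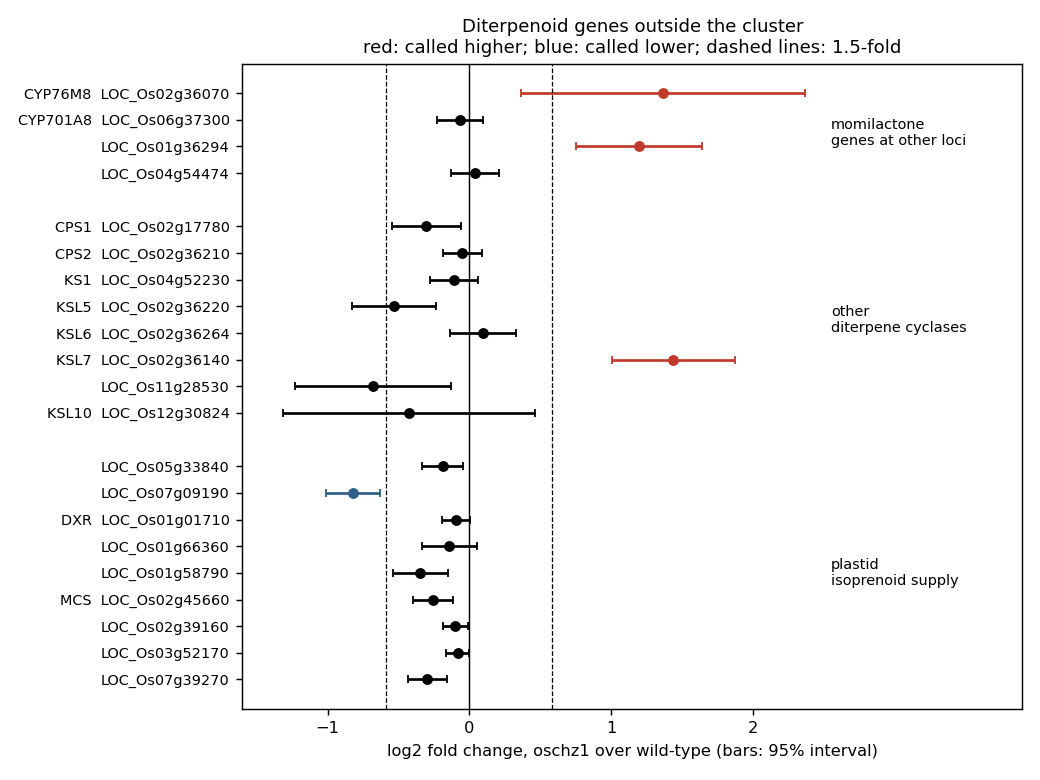
Log2 fold change (oschz1 over wild-type) with its 95% interval for 4 loci listed for momilactone synthesis outside the cluster, 8 other diterpene cyclases and 9 loci of the plastid isoprenoid supply, red where called higher and blue where called lower, with dashed lines at 1.5-fold. CYP76M8, LOC_Os01g36294 and KSL7 lie to the right of the dashed line, LOC_Os07g09190 lies to the left, and the plastid genes all lie left of 0.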

How the data were processed

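RNA-seq libraries of 3 oschz1 and 3 wild-type samples were grouped by the genotype in the labels. The study describes biological replicates of pooled seedlings. Whether the pools were grown apart from each other is not stated, so errors measure the spread between these samples only. The methods of the study name cutadapt for trimming the strand-specific reads, HISAT2 for alignment, SAMtools for the choice of unique alignments and featureCounts for the counts per gene. The authors compared the genotypes with DESeq2. No source used here states whether strand entered the counting, so that sense and antisense reads of overlapping genes cannot be told apart.

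The file is the authors' deposited table of this comparison, whose columns are the only measurements of the members. The mean normalized count deposited there is a signal over 6 libraries. The deposited log2 fold change and its SE are unshrunken log2 values from the authors' fit. The deposited Wald statistic is a score. The deposited p-values are two-sided, with a Benjamini-Hochberg adjustment by the authors for 25945 of 30020 genes. Positive values were read as higher in oschz1, the direction that matches the study's counts of genes up and down. Intervals of fold changes are normal 95% intervals from the SE.

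Library totals are not given. The worth of a read in each library was found from the smallest means, and genes with reads in 1 library showed its genotype. Sums of whole reads that gave a gene's mean were kept where a negative binomial fit of the 2 groups, with the dispersion solved from the SE, gave the deposited log2 fold change within 1e-09. The form of the fit and the tolerance were set on genes with low means. Reads known from the mean alone gave the fold change for 286 of 290 genes with means of 3 to 5, and the other 4 could not be fitted. Of 5168 genes with means of 10 to 80, 5134 had exactly 1 solution and 0 had several. On simulated data, reads of 200 of 200 genes with means of 10 to 80 were recovered. The simulated fold changes and SEs came from the same fit, so this checks the search and not the form of the authors' fit. For LOC_Os01g64780 only sums within 2.44 SD of the fitted values were searched. PCR copies are not independent molecules, so counting intervals cover counting error only.

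The members, lists and alternatives were chosen with earlier results of these data known. The rule named all members, all genes of the interval and each called gene of the flanks and lists. The genes named from flanks and lists that were not called were chosen after their values were seen. Symbols are printed where the member list or the RefSeq table (ASM3414082v1) has them. Its coordinates are not printed, since the identifiers belong to another annotation (MSU7). No MSU7 locus identifier of OsChz1 was found in the sources used here, and no value is given for it. Python 3.11.15, numpy 2.4.6, scipy 1.17.1, pandas 2.3.3 and matplotlib 3.10.9 were used. Alternatives were other thresholds, another gene set for the adjustment, centring, wider flanks and, added after the data were seen, leaving out each library and ratios of read sums.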

Additional observations from a re-analysis of the deposited data

How the results depend on the processing

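The count of called members was 2 at a 2-fold threshold, without a fold threshold, at an adjusted p of at most 0.01 and after centring on the median of genes with means of at least 50. It was 3, with KSL4 added, at an adjusted p of at most 0.1 and with the adjustment over genes with means of at least 10. The call of KSL4 thus depends on the threshold. The called genes in the flanks numbered 2 of 30 tested genes with 20 rows on each side, a share close to the 7.58% of all tested genes. The median log2 fold change was 1.43 over the 5 members of chromosome 4. The called genes of the other lists numbered 4, and 3 at 2-fold and 5 at an adjusted p of at most 0.1. The gene added at that looser threshold was LOC_Os11g28530, which was lower in oschz1. Leaving out each library in turn, the log2 ratio of mean normalized counts ran from 1.25 to 1.58 for CPS4, lowest without wild-type library b. It ran from 1.42 to 1.75 for KSL4, from 1.32 to 1.64 for CYP99A2 and from 0.04 to 0.38 for CYP99A3. For MAS it ran from 0.12 to 0.38, and for LOC_Os01g64780 from 0.16 to 0.23. Adjusted p-values without a library were not computed, since the deposited test covers all 6 libraries. No paired analysis was possible because the table carries no replicate numbers. Among the members, KSL4 had the fewest reads, with 15 in all wild-type libraries, and the largest SE.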
